A study of Rattus norvegicus with 24 samples.

Results

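Notch signalling passes between touching cells. A Delta or Jagged ligand on a neighbour opens the Notch receptor to cleavage, the freed intracellular domain joins the DNA-binding protein RBPJ in the nucleus, and Hes and Hey genes, which encode basic helix-loop-helix (bHLH) repressors, are switched on. In the brain this pathway holds neural and glial progenitors in an undifferentiated state, and in the hypothalamus such cells include oligodendrocyte precursors in the parenchyma and tanycytes lining the third ventricle. The transcription factors Sox2, Olig1, Olig2 and Nkx2-2 mark stages of the same lineage, and cyclin D1 carries dividing cells through the G1 phase.

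Described here are 10 genes of glial progenitors and of the Notch pathway, out of 14217 genes measured: Sox2, Sox4, Nkx2-2, Nrarp, Ccnd1, Olig2, Olig1, Hes1, Hes5 and Notch1. Every probe set annotated to 1 of these symbols was taken, which gave 26 probe sets. Measured values entered the choice, because Sox2, Sox4, Nkx2-2, Nrarp and Ccnd1 were listed as genes that fell after restraint. The comparison of restrained rats with control rats is therefore given for the 10 genes as a description, without tests.

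The study measured total RNA from hypothalamic blocks of 18 male Wistar rats aged 7 weeks on Affymetrix arrays, with the block of 1 rat per array. Of these, 6 rats were restrained for 2 h in wire mesh while breathing (R,S)-linalool, a floral monoterpene alcohol of which 20 µL was evaporated in a 40 L box, 6 were restrained for 2 h without the odour, and 6 were controls. All were killed directly after the exposure. The authors normalized the arrays in separate sets, restraint with control and restraint with linalool with restraint, and the 6 restrained rats are present in both. A block holds many cell types, so fewer cells of a type and less RNA per cell cannot be told apart.

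The activity of the Notch pathway was not measured. The promoters of Hes1 and Hes5, the classical direct targets of Notch, and of Nrarp, a target that acts back on it, are shown. They are RefSeq sequences on the rat build GRCr8, each from 250 bases before to 50 bases after the gene's start, written 5′ to 3′ on the gene's strand. Capitals mark the RBPJ core TGGGAA, searched on both strands, so that TTCCCA is the same motif on the other strand. The windows are chr11:84212996-84213295 on the minus strand for Hes1, chr5:170804327-170804626 on the plus strand for Hes5 and chr3:28390495-28390794 on the plus strand for Nrarp.
Hes1: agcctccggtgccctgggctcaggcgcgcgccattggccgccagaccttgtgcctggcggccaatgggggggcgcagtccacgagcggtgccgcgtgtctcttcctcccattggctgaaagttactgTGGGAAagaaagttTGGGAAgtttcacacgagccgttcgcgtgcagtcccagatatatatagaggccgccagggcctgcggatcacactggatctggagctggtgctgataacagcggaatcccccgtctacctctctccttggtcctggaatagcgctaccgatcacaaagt
Hes5: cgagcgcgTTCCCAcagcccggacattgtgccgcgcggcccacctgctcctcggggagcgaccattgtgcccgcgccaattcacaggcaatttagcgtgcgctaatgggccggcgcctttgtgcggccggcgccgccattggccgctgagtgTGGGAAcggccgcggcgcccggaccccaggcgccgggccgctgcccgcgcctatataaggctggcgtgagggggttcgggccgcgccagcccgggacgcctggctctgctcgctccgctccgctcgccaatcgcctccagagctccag
Nrarp: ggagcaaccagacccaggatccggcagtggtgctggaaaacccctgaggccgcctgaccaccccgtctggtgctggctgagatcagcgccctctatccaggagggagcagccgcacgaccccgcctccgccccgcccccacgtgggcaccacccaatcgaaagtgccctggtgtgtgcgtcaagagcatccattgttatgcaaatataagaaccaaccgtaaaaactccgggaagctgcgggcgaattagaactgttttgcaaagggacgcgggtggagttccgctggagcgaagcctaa

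Hes1 carried 2 copies of the core, whose first bases lay at -123 and -109 relative to the start, and Hes5 carried 2, at -242 and -98. The core was found in 25.7% of the 33469 promoters searched and at least 2 copies in 3.85%. Of the 10 genes, 7 had a promoter in the table, and the other 5 of these, Nrarp among them, had no copy in the window. The Nrarp window holds CACGTG, which reads the same on both strands, at -112. It matches CACGNG, a site bound by Hes-type repressors, which was found on either strand in 26.1% of all promoters. The match is not particular to Nrarp. The Hes1 window holds 4 matches, at -171, -159, -97 and -86, and the Notch1 window holds 1, at -61. A further motif searched, CACNAG, was found in 43.1% of all promoters. It had 2 matches in the Nrarp window, 4 in that of Hes1, 4 in that of Notch1 and 1 in that of Nkx2-2. Binding of any protein to these matches was not tested. Sox4, Ccnd1 and Olig1 are named only.

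The values are log2 signals as deposited, between 5.59 and 14.93. For many probe sets the deposited values barely vary between rats: 80.9% of genes in the restraint set and 81% in the linalool set had a residual SD under 0.01. For such probe sets, called compressed below, the log2 difference has no usable size, and the difference is divided by the residual SD, the spread between rats of a group; for 6 rats against 6 the standard error of such a value is 0.577. The same 6 rats had parallel values in the 2 sets for the 26 probe sets, with a median Pearson r of 0.962 and a range of -0.09 for Olig1 to 0.999. Their spread was not parallel: the SD over the 6 restrained rats was 868 times larger in the first set for Nkx2-2 and 821 times larger for Nrarp, and it was 97.2 times larger in the second set for Olig2. Controls also differed among themselves in meningeal markers, as given below, and Hes5 separated restrained rats 1 to 3 from 4 to 6.

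Restraint was first set against the control rats. The 5 genes named by the choice were lower in all 6 restrained rats than in any control, by 0.27 to 0.40 on the log2 scale, and the other 5 overlapped. Across all genes, limma called 101 of 14217 (0.71%) at an adjusted p under 0.05, 69 higher (0.485%) and 32 lower (0.225%). Groups did not overlap, with restraint lower, in 95 genes (0.668%). The 5 of 10 members counted here were chosen on this contrast, so nothing is read from that count. Of the 5 listed as fallen, Ccnd1 had the smallest difference, -3.20 residual SDs, and the most negative of the others was Hes5, at -1.89.

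Sox2 encodes the HMG-box factor that maintains neural stem and progenitor cells and stays on in tanycytes and astroglia. Its log2 signal ranged from 10.15 to 10.52 in restrained rats, with a median of 10.34, against 10.59 to 10.84 in control rats, with a median of 10.76. Every restrained rat lay below every control. The means were 10.35 ± 0.126 in restrained rats and 10.75 ± 0.0995 in control rats (SD, n = 6 each), a difference of -0.40 (SE 0.0654) or a fold of 0.758. Another 2 Sox2 probe sets with usable spread gave -0.36 (8.92 to 9.12 in restrained rats against 9.18 to 9.55 in control rats) and -0.31 (10.28 to 10.45 in restrained rats against 10.49 to 10.82 in control rats). Neither overlapped between the groups, and the remaining Sox2 probe set, which was compressed, stood at -1.02 residual SDs.

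Sox4 is a SoxC factor of immature neurons and of oligodendrocyte precursors. Its signal ran from 10.11 to 10.23 in restrained rats (median 10.18), against 10.28 to 10.60 in control rats (median 10.47), with no overlap. The difference was -0.30 (SE 0.0491), between means of 10.18 ± 0.0437 in restrained rats and 10.48 ± 0.112 in control rats (SD, n = 6 each), a fold of 0.813. The other 6 Sox4 probe sets were compressed, 5 of them negative, between -0.523 and -2.14 residual SDs, and 1 positive at 0.33.

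Nkx2-2 is a homeodomain factor needed for oligodendrocyte precursors to mature and for ventral progenitor identity. Its single probe set lay between 8.52 and 8.71 in restrained rats (median 8.66), against 8.89 to 9.27 in control rats (median 8.96). The groups were apart, with a difference of -0.39 (SE 0.068) between means of 8.64 ± 0.0742 in restrained rats and 9.03 ± 0.149 in control rats (SD, n = 6 each). Ccnd1, which encodes cyclin D1, the G1 partner of Cdk4 and Cdk6, had 9.26 to 9.48 in restrained rats (median 9.43), against 9.52 to 9.76 in control rats (median 9.71). These did not overlap either, and differed by -0.27 (SE 0.0496), a fold of 0.827. Its other 2 probe sets moved the same way but overlapped: -0.32, with 8.67 to 8.99 in restrained rats against 8.97 to 9.33 in control rats, and -0.16, with 9.33 to 9.50 in restrained rats against 9.44 to 9.66 in control rats.

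Among the Notch genes, Nrarp had the largest difference in residual SDs of the 10. It encodes an ankyrin-repeat protein that is induced by Notch and promotes loss of the receptor's intracellular domain. Its signal lay between 8.72 and 8.97 in restrained rats (median 8.87), against 9.17 to 9.28 in control rats (median 9.24). All restrained rats were lower, by -0.36 on average (SE 0.046), or -4.57 residual SDs, a fold of 0.777. The other 2 Nrarp probe sets, both compressed, stood at -1.82 and -0.778 residual SDs.

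The repressors of the Hes family had differences of opposite sign. Hes5 had means of 8.30 ± 0.415 in restrained rats and 8.88 ± 0.132 in control rats (SD, n = 6 each), a difference of -0.58 (SE 0.178). Restrained rats 1, 2 and 3 had 7.78, 8.07 and 7.96, below every control, while restrained rats 4, 5 and 6 had 8.73, 8.57 and 8.71, against 8.68 to 9.06 in control rats, so 2 of the 6 overlapped the controls. The second Hes5 probe set, which was compressed, stood on the other side of 0, at 0.84 residual SDs. Hes1 ran from 8.60 to 8.89 in restrained rats (median 8.72), against 8.25 to 8.60 in control rats (median 8.53). That is a difference of 0.25 (SE 0.0733), a fold of 1.19, with the lowest restrained rat level with the highest control. Notch1, the receptor, was compressed at -1.34 residual SDs, and its second probe set gave -0.13 (9.21 to 9.44 in restrained rats against 9.36 to 9.55 in control rats), overlapping.

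Of the oligodendrocyte-lineage bHLH factors, Olig1 had means of 12.64 ± 0.0222 in restrained rats and 12.50 ± 0.119 in control rats (SD, n = 6 each). The difference was 0.14 (SE 0.0493) and the groups overlapped. Olig2 was compressed on both probe sets, at 1.39 and -0.0931 residual SDs. Averaging all probe sets of a gene, compressed ones included, gave smaller differences of -0.27 for Sox2, -0.045 for Sox4, -0.12 for Nrarp and -0.29 for Hes5. Over the 10 genes 7 differences were negative and 3 positive, with a median of -2.54 residual SDs, and the median over all genes was 0.11. The sign of Notch1, compressed on its representative probe set, turned under both other scalings. Its log2 difference was 0.0095 after median centring and 0.0071 after quantile normalization. The medians are set side by side only, since the members were chosen on this contrast.

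**Figure D1:**
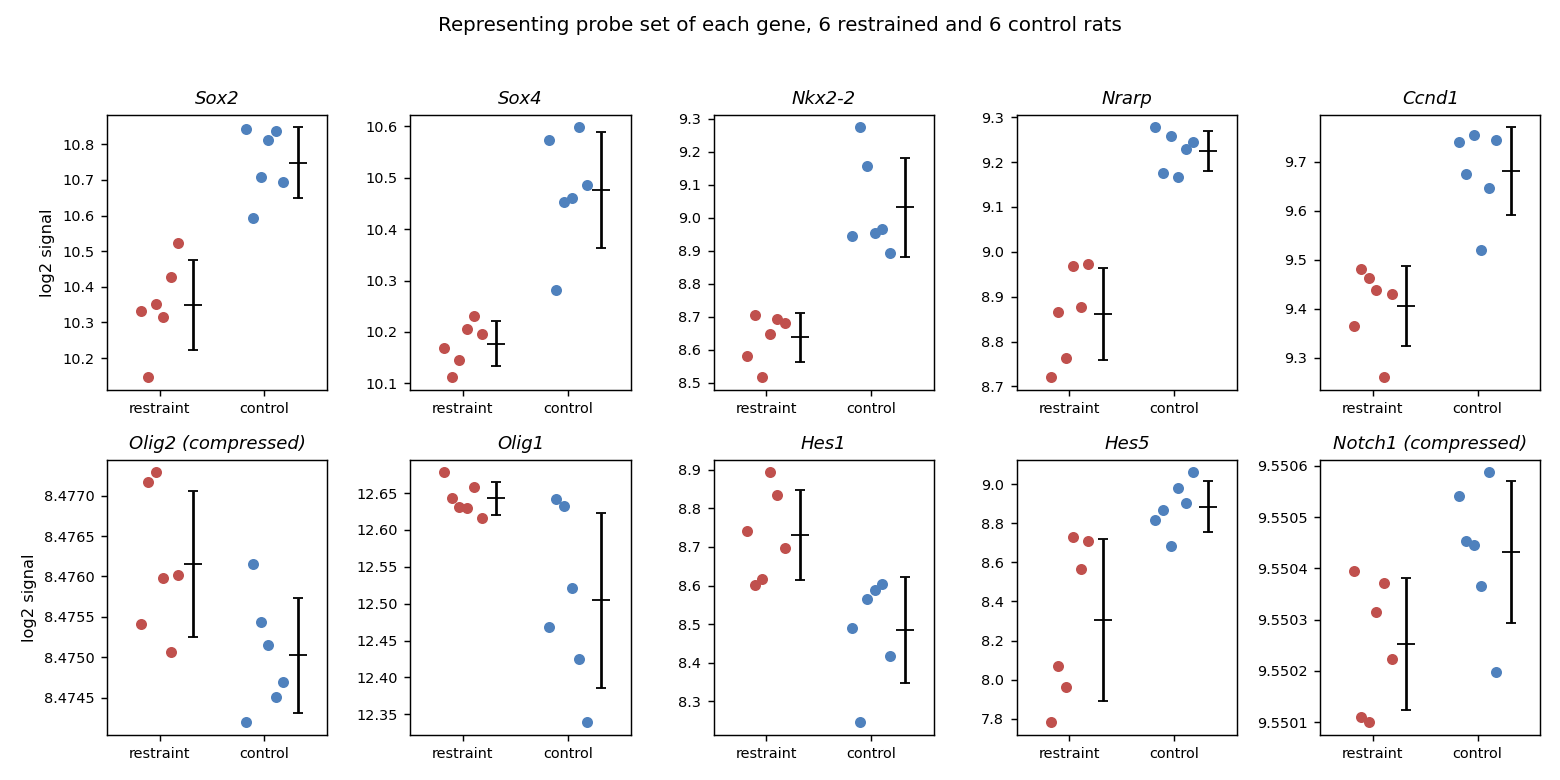
Deposited log2 signal of each of the 10 genes in each rat, restrained rats on the left and control rats on the right of each panel, with each group's mean and SD (n = 6 each). Sox2, Sox4, Nkx2-2, Nrarp and Ccnd1 do not overlap between the groups, and Hes5 falls into separate levels among the restrained rats.

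The controls did not form 1 tight group for meningeal markers, which are genes of fibroblasts and of the brain's coverings. Their mean marker score over 14 genes, in residual SDs, was -0.87 to -0.40 in restrained rats and -1.001 to 2.27 in control rats, with controls 5 and 6 highest. The summed linear signal of these genes was 6218 to 7884 in restrained rats and 5683 to 23429 in control rats. None of the 14 genes passed the limma threshold, but 10 were lower at an unadjusted p under 0.05. For the 5 members that had not overlapped, leaving out controls could not turn the sign, since every restrained rat lay below every control. Without controls 4, 5 and 6 their differences were -0.37 for Sox2, -0.26 for Sox4, -0.49 for Nkx2-2, -0.38 for Nrarp and -0.32 for Ccnd1. These sizes are a description, as the 5 were chosen on this contrast. A fit that takes the meningeal score as a covariate gave -0.37 for Sox2, -0.25 for Sox4, -0.46 for Nkx2-2, -0.35 for Nrarp and -0.29 for Ccnd1. Over all genes limma called 2 without those controls, neither of them a member, and 1297 had an unadjusted p under 0.05. With the covariate it called 0, and 1152 had an unadjusted p under 0.05.

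Other cell types in the block were read from marker lists. Endothelial scores over 9 genes ran from -1.48 to -0.25 in restrained rats and -0.59 to 1.79 in control rats, with summed linear signals of 7170 to 7639 in restrained rats and 7693 to 9015 in control rats, which did not overlap. Of these genes 2 of 9 fell in the limma test (Kdr, the VEGF receptor, by 0.64 with an adjusted p of 0.0302, and Slco1c1, a thyroid hormone transporter, by 0.25 with 0.0492). Limma called 0.225% of all genes lower. The unmoderated test called 1 of the 9. Microglial summed signals over 6 genes did not overlap either, in the other direction, at 3091 to 3211 in restrained rats and 2935 to 3088 in control rats. Microglial scores overlapped, at -0.88 to 0.83 in restrained rats and -0.76 to 1.12 in control rats. Scores of oligodendrocyte precursors (-0.59 to 0.30 in restrained rats, -0.22 to 0.23 in control rats), astrocytes (-0.26 to 0.38 in restrained rats, -0.75 to 0.29 in control rats) and tanycytes with ependyma (-0.58 to 0.05 in restrained rats, -0.81 to 0.81 in control rats) overlapped. No gene of these 3 lists passed the limma threshold or the unmoderated test; at an unadjusted p under 0.05 there were 2 lower of 8 precursor genes, 2 higher and 1 lower of 9 astrocyte genes, and 2 lower of 7 tanycyte and ependymal genes. The nearest precursor genes were Sox10 (-0.14, adjusted p = 0.23) and Pdgfra, the receptor that marks precursors (-0.24, 0.277). The part of any of these cells in the members' differences was not tested.

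**Figure D2:**
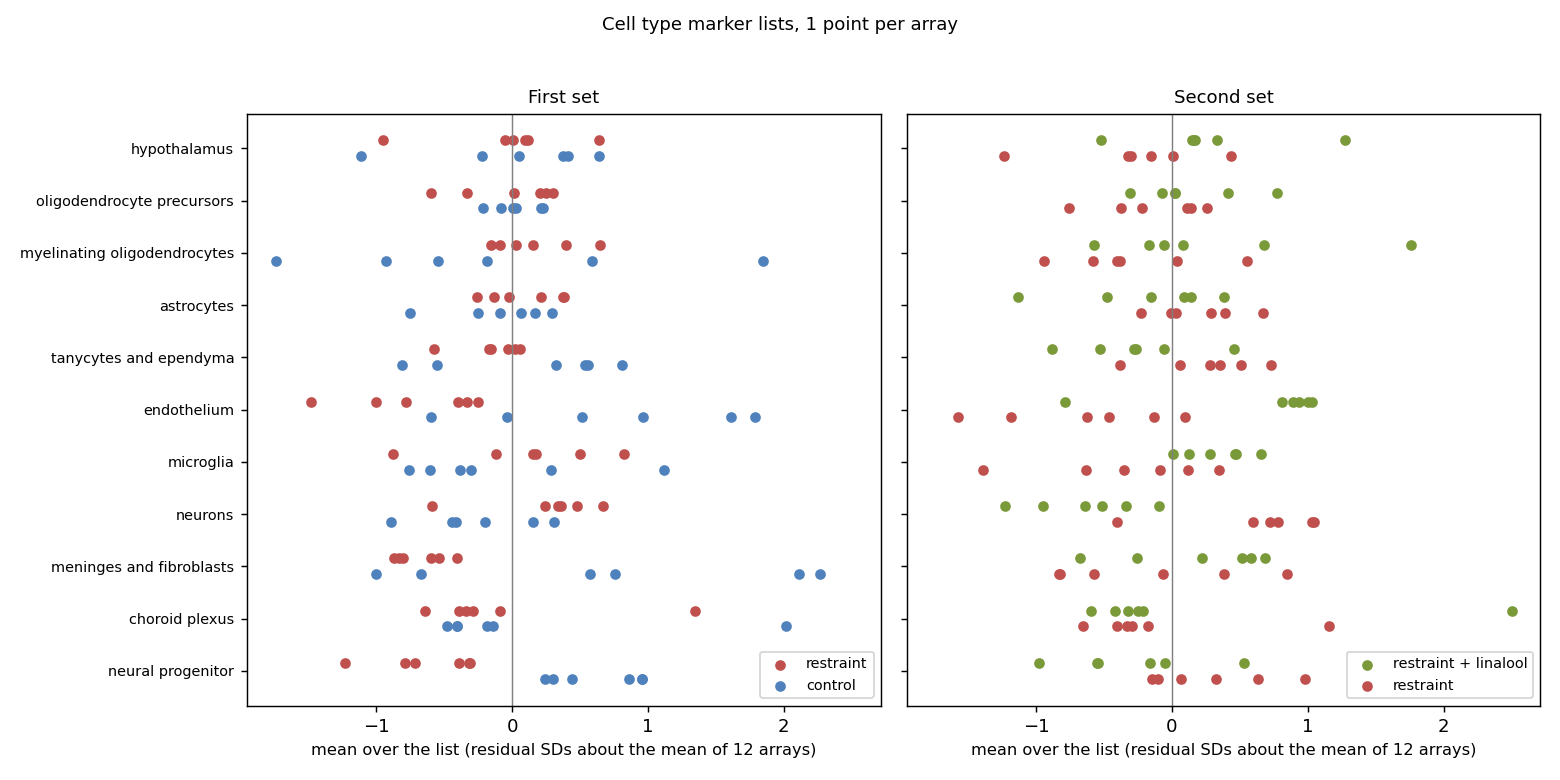
Mean score of each cell type marker list in residual SDs, 1 point per rat, with the restraint comparison in the left panel and the linalool comparison in the right one. Meningeal scores of control rats spread from -1.001 to 2.27, while those of restrained rats lie between -0.87 and -0.40.

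The rest of the Notch pathway, 40 genes besides the members, did not pass the test after restraint. Limma called 0 of the 40 at an adjusted p under 0.05; at an unadjusted p under 0.05, 4 were higher and 7 lower, and the unmoderated test also called 0 of them. The median was -0.53 residual SDs, beside 0.11 for all genes, and 33 of the 40 were compressed. Median centring moved the median difference over all genes from 1.96e-05 to 0.00966 on the log2 scale. The signs of compressed genes, and so the -0.53, can therefore depend on the scaling. The smallest p-values by role belonged to the ligand Dll1 (-2.48 residual SDs, adjusted p = 0.0912) and the fringe glycosyltransferase Lfng (2.01 residual SDs, 0.156). Among targets, Hey2, a bHLH repressor, had -0.10 (SE 0.0323, adjusted p = 0.191), and in the list of genes that restrain the pathway, Dtx4 had -1.78 residual SDs (0.191).

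Of 46 genes in the lists of Sox factors, progenitor factors, G1 partners of cyclin D and proliferation, 1 passed after restraint, which is 2.17% beside 0.71% of all genes. That gene was Cdkn1a, the cyclin-dependent kinase inhibitor p21, which rose in all 6 restrained rats, at 10.00 ± 0.163 in restrained rats and 9.09 ± 0.302 in control rats (SD, n = 6 each). The difference was 0.91 (SE 0.14, limma adjusted p = 0.0227). None of its list passed when restrained rat 1, 3 or 5 or control 5 was left out, without controls 4 to 6, or with the meningeal covariate. The proliferation genes Mki67 and Cdk1 had -1.47 and -1.46 residual SDs (0.251 and 0.258). Id2, an inhibitor of bHLH factors, had 0.23 (0.104) and Sox21, a SoxB repressor, had -2.53 residual SDs (0.0841). The limit on the sign of compressed genes given above holds for the values in residual SDs here too.

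**Figure D3:**
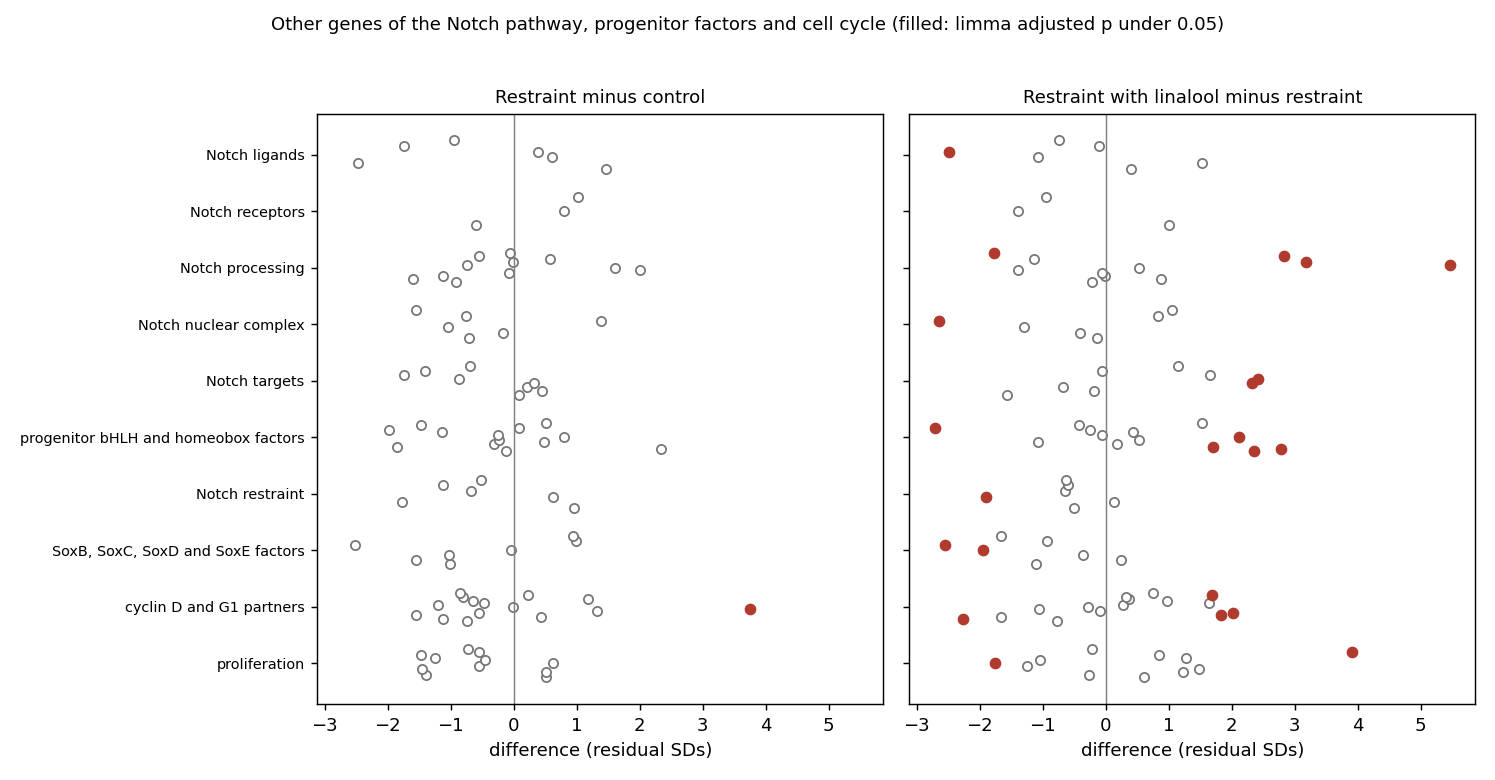
Difference of each gene of the pathway lists in residual SDs, grouped by role, with filled points for genes past the limma threshold; restraint against control is in the left panel and restraint with linalool against restraint in the right one. In the left panel Cdkn1a at 3.75 residual SDs is the single gene past the threshold.

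Genes patterned most like Sox2 over the 12 arrays of the first set were ranked by Pearson r among 14216 genes, as a description without p-values. The highest were Nol4l (0.951), Sox4 (0.941), Tfrc, the transferrin receptor (0.939), Six5, a homeodomain factor (0.926), and Nlgn2, a postsynaptic adhesion molecule (0.907). Without the 2 arrays farthest from the median of Sox2 these were 0.929, 0.932, 0.900, 0.883 and 0.868. The arrays fall into 2 groups that differ in Sox2, so these values carry the group difference. With each group's mean removed they were 0.748 for Nol4l, 0.722 for Sox4, 0.729 for Tfrc, 0.857 for Six5 and 0.771 for Nlgn2. Nrarp, at 0.872 over all 12 arrays, was then at 0.277, Nkx2-2 at -0.42 and Ccnd1 at -0.38.

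Linalool was set against restraint alone in the second set. The members listed as fallen after restraint were chosen on values of the same restrained rats, which are the reference here. Their tests against linalool are therefore not free of that choice. The p-values of these members, and counts of members that include them, are given as a description. Olig2 and Sox4 fell and Hes1 rose in rats given the odour, the last 2 on compressed values, and the other 7 members did not pass. Limma called 4229 of 14217 genes (29.7%) in this contrast, 2849 higher (20%) and 1380 lower (9.71%), so 3 of 10 members called is a share near the background. In 2 of the 10 the groups did not overlap, with linalool lower, beside 3.7% of all genes. Of the array's own 57 control probe sets, with p-values adjusted over these 57 alone, 27 passed (47.4%). That share is therefore not at the same cut-off as the share of genes. Of 45 bacterial and phage control probe sets, which do not measure rat RNA, 19 passed, 15 higher and 4 lower. In the restraint set 1 of the 57 passed (1.75%). Whatever moved these control probe sets runs along with the groups, so it and the odour cannot be told apart for any gene below.

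Olig2, which specifies the oligodendrocyte lineage and stays on in precursors and mature cells, was the member with the largest change. Its signal lay between 8.08 and 8.22 with linalool (median 8.17), against 8.43 to 8.66 in rats restrained without it (median 8.48), with no overlap. The means were 8.16 ± 0.0497 with linalool and 8.52 ± 0.088 without (SD, n = 6 each), a difference of -0.36 (SE 0.0413, limma adjusted p = 0.000241), a fold of 0.779 and -5.04 residual SDs. It passed in all 20 alternatives run, with adjusted p between 3.72e-05 and 0.00907. With the mean of both probe sets the difference was -0.18. The second Olig2 probe set did not pass (0.143 residual SDs, adjusted p = 0.881 over all probe sets). The same restrained rats had an SD of 0.000906 on the first Olig2 probe set in the other set, against 0.088 here.

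Sox4 was compressed on all of its probe sets. The representative one fell by 2.50 residual SDs (limma adjusted p = 0.00873) without overlap, and its sign turned under both other scalings, to 0.0073 after median centring and 0.00088 after quantile normalization. Over its 20 alternatives the adjusted p ran from 0.00627 to 0.989, and the mean of its probe sets did not pass (0.153). Of the other 6 Sox4 probe sets, 2 fell (-2.04 and -2.73 residual SDs, adjusted p = 0.0253 and 0.00677 over all probe sets) and 1 rose (2.06, 0.0236), so the probe sets of the gene disagreed.

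Hes1 rose by 1.66 residual SDs with linalool (limma adjusted p = 0.0495), compressed and overlapping. That call passed in 6 of its 20 alternatives, with adjusted p from 0.0279 to 0.104, and it was lost without moderation (0.056) and with quantile normalization (0.104). Hes5 had 8.23 to 8.59 with linalool (median 8.36), against 7.80 to 8.78 in rats restrained without it (median 8.31). It lay within the spread, with a difference of 0.09 (SE 0.187, adjusted p = 0.761). Restrained rats 1 to 3 were low here as in the first set, since they are the same animals. The second Hes5 probe set, which was compressed, stood at -0.601 residual SDs with linalool (limma adjusted p = 0.482 over all probe sets).

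Sox2 had 10.42 ± 0.150 with linalool and 10.42 ± 0.115 without (SD, n = 6 each), with ranges of 10.14 to 10.56 with linalool and 10.23 to 10.58 without. The difference of -0.0017 (SE 0.0772, limma adjusted p = 0.989) was far inside the spread, and its sign varied with the setting. A second Sox2 probe set gave -0.08 (adjusted p = 0.298 over all probe sets). The other 2 Sox2 probe sets, both compressed, stood at -1.39 and 0.578 residual SDs. Nkx2-2 (0.978 residual SDs, 0.234), Nrarp (0.523, 0.534), Notch1 (-1.11, 0.172) and Olig1 (0.494, 0.561) did not pass on compressed values. A p above the threshold does not show that they were alike in the 2 groups.

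Ccnd1 differed between its probe sets. On its representative probe set it had -1.49 residual SDs (limma adjusted p = 0.075). On another, which kept a usable spread, it fell by 0.29 (SE 0.0751, adjusted p = 0.0171 over all probe sets), with 8.46 to 8.80 with linalool (median 8.62) against 8.68 to 9.01 without (median 8.93). These overlapped, and the third probe set had -0.165 residual SDs. Taking the mean of the 3 probe sets gave -0.10 (adjusted p = 0.0142). Over all 26 probe sets of the 10 genes, 21 were compressed and 6 passed, beside 25% of the 31042 probe sets tested.

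**Figure D4:**
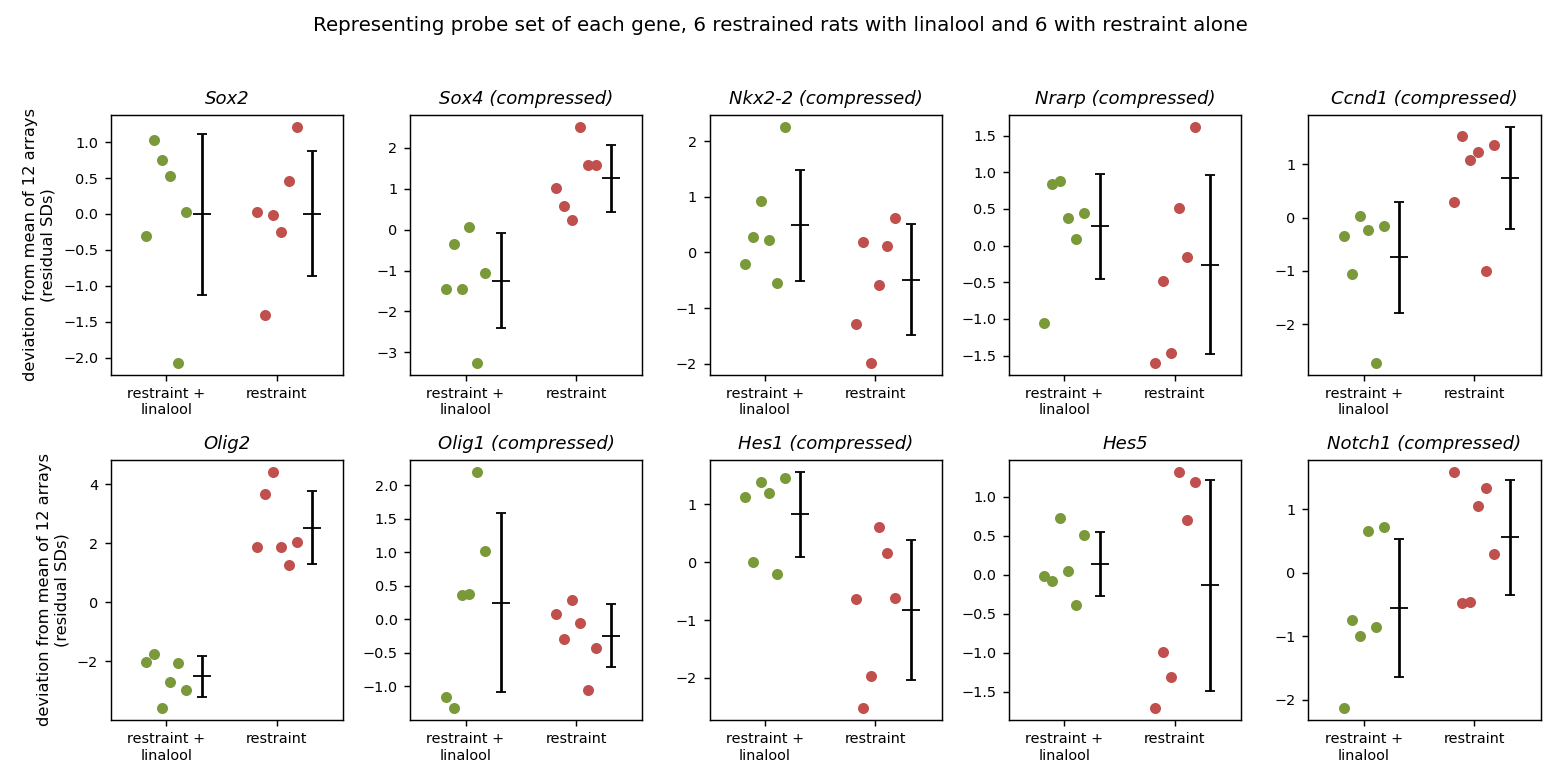
Deviation of each rat from the mean of the 12 arrays of the second set, in residual SDs, for each of the 10 genes, with rats restrained with linalool on the left and rats restrained without it on the right of each panel, with each group's mean and SD (n = 6 each). Olig2 separates the groups at a difference of -5.04 residual SDs, Sox4 separates them on compressed values, and the panels of 7 of the 10 genes are marked as compressed.

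**Figure D5:**
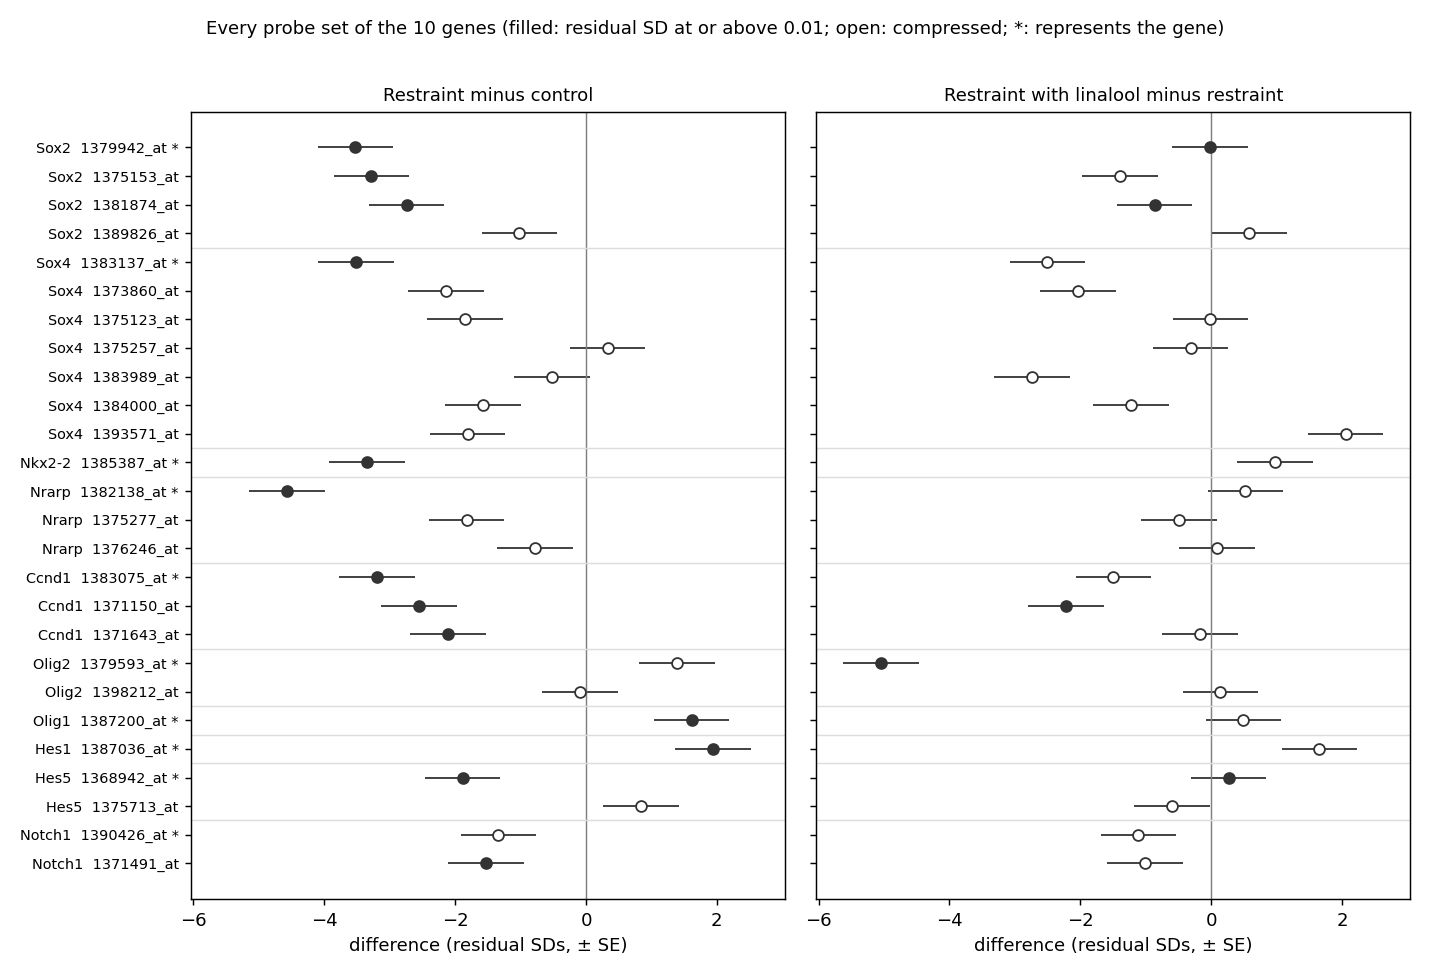
Difference of each of the 26 probe sets in residual SDs, restraint against control in the left panel and restraint with linalool against restraint in the right one, with filled points for probe sets with usable spread. Bars are standard errors. The Sox2 and Ccnd1 probe sets are below 0 in the left panel, and in the right panel the Sox4 probe sets lie on both sides of 0.

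In the 40 other Notch genes, 5 rose and 4 fell with linalool, which is 22.5% beside 29.7% of all genes, with a median of -0.17 residual SDs beside 0.22. The genes that rose included subunits of the γ-secretase that frees the receptor's intracellular domain: Psenen by 0.22 (SE 0.0455, limma adjusted p = 0.00443), and Ncstn, compressed, by 5.46 residual SDs (0.000217). Poglut1, which adds O-glucose to the receptor, rose by 0.22 (SE 0.0404, adjusted p = 0.00249). Among Hes and Hey genes besides the members, Hey1 rose by 0.09 (SE 0.0222, limma adjusted p = 0.00978) and Hes6 by 2.33 residual SDs (0.0132). The sign of Hes6 turned under quantile normalization.

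Those that fell were Fbxw7, the substrate receptor of a ubiquitin ligase for the intracellular domain (-0.19, SE 0.0577, limma adjusted p = 0.028), the ligand Dll4 (-2.49 residual SDs, 0.0102), the coactivator Maml2 (-2.65, 0.00696) and the fringe enzyme Rfng (-1.77, 0.0393). The last 3 are compressed, and the call in the list of Fbxw7 was lost without linalool rat 2 or 3 or restrained rat 1 or 3. Dll4 and Maml2 turned sign under median centring and quantile normalization, and Rfng under median centring.

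In the other lists, 8 genes rose and 5 fell of 46, which is 28.3%, beside 29.7% of all genes. Of the 13 progenitor bHLH and homeobox genes 4 rose and 1 fell. Those that rose included Id2, Id1 and Id3, which encode inhibitors of bHLH factors: Id2 by 0.18 (limma adjusted p = 0.00478), Id1 by 0.17 (0.0111) and Id3 by 0.20 (0.045). Pcna, the polymerase clamp, rose by 0.22 (SE 0.0329, 0.000833) and Cdk4, the partner of cyclin D, by 0.09 (0.0218). Sox21 (-2.55 residual SDs, 0.00826), Tcf3 (-2.71, 0.00588), Ccnd3 (-2.26, 0.0149) and Mcm3 (-1.76, 0.0417) fell on compressed values and turned sign under both other scalings. Nkx6-1 (2.12, 0.0182), Cdk2 (1.83, 0.0341) and Rbl1 (1.69, 0.0466) rose on compressed values. Sox12 fell by 1.95 residual SDs (0.0257) and turned sign under median centring.

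Of 83 genes in the cell type marker lists, 8 rose and 5 fell with linalool, which is 15.7% beside 29.7% of all genes. Of the oligodendrocyte-lineage lists, Bcan, a proteoglycan of precursors, rose by 0.18 (limma adjusted p = 0.00681), and of myelin genes Mag, a myelin-associated glycoprotein, fell by 0.24 (0.0037) while Ermn rose by 0.35 (0.00614) and Mobp by 0.08 (0.0495). Scores over 8 precursor markers ran from -0.31 to 0.77 with linalool, against -0.76 to 0.26 without. Neuron scores ran from -1.23 to -0.10 with linalool and -0.40 to 1.05 without, and astrocyte scores from -1.13 to 0.38 with linalool and -0.23 to 0.67 without, with Slc1a2, the glial glutamate transporter, down by 0.43 (9.34e-05). Whether these cells take part in the members' differences was not tested.

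Hypothalamic markers were read on 12 neuropeptide and factor genes, Agrp and Kiss1 not being measured. In the restraint set 5 of the 12 were compressed. No other tissue was set beside them, so the origin of the block was not tested. Of the neuropeptides, named here as tissue markers after their values were seen, Avp, vasopressin, had a mean of 11.33 ± 0.881 in restrained rats and 11.81 ± 0.571 in control rats, and Oxt, oxytocin, had 10.63 ± 1.32 in restrained rats and 10.94 ± 0.900 in control rats (SD, n = 6 each). Hcrt, orexin, had 9.63 ± 0.344 in restrained rats and 9.24 ± 0.329 in control rats, and Pmch, melanin-concentrating hormone, had 12.32 ± 0.238 in restrained rats and 11.89 ± 0.439 in control rats (SD, n = 6 each). None of the 12 passed the limma threshold in either comparison. At an unadjusted p under 0.05 there was 1 lower after restraint, and 2 higher and 1 lower with linalool. After restraint 4 of the 12 differences were positive, with a median of -0.18 residual SDs, and the smallest p-values belonged to Otp (-1.70 residual SDs, adjusted p = 0.201) and Pmch (0.43, 0.328). With linalool they belonged to Ghrh (1.51 residual SDs, 0.0711) and Otp (-1.37, 0.0955).

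After restraint, 2 of the 83 marker genes passed, the endothelial ones above, which is 2.41% beside 0.71% of all genes. None of 7 myelin, 6 microglia, 6 neuron and 5 choroid plexus genes passed the limma threshold, while 1 microglial and 1 neuronal gene had an unadjusted p under 0.05. Tmem119, a microglial membrane protein, was nearest at 0.50 (limma adjusted p = 0.0739). With linalool, the microglial genes Aif1 (0.17, limma adjusted p = 0.0114) and Itgam (2.10 residual SDs, 0.019) rose, the neuronal genes Syt1 (-0.34, 0.00272) and Rbfox3 (-0.27, 0.00519) fell, and the endothelial genes Esam (0.14, 0.000197) and Cldn5 (3.26 residual SDs, 0.00234, turned by quantile normalization) rose. Of 14 meningeal genes Mgp, a matrix protein, rose by 0.39 (0.0126), and no choroid plexus gene passed or had an unadjusted p under 0.05.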

How the data were processed

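The deposited table holds log2 signals of 31099 probe sets for 24 columns, normalized by the authors in 2 sets, per the labels. How they normalized is not stated in the labels or headers, and the log2 scale was read from the range of the values. The table has no counts, so depth is not defined, and the number of arrays limits the precision. GEO's platform annotation gave 1 symbol to 20826 probe sets, several to 436 and none listed to 9780. The 57 control probe sets were left out of the tests. The probe set with the highest mean stood for each of 14217 genes, and a second fit over 31042 probe sets gave p-values for every member probe set.

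Models came from limma 3.58.1 under R 4.3.3, 1 fit per set of 12 arrays (lmFit, eBayes, Benjamini-Hochberg adjustment, threshold 0.05). Compressed means a residual SD below 0.01. Promoters come from RefSeq (GRCr8). The fit was tested on simulated data with known differences.

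The members, the lists and the tests were chosen with earlier results of these data known. All members are named with every probe set; of each list, the genes past the threshold (the 6 smallest p where there were more) or else those with the 2 smallest p were eligible for naming, and the 5 genes most correlated with Sox2. The labels share replicate numbers between groups but not every same-numbered pair correlated above 0.1, so no block was used. Alternatives were other scalings, moderation, filters, probe set choices, a replicate block, left-out arrays and a meningeal covariate.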

Additional observations from a re-analysis of the deposited data

How the results depend on the processing

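For restraint against control, limma called 101 genes. The count was 61 after median centring, 49 after quantile normalization, 172 over all probe sets, and 26 to 133 when 1 array was left out. With the replicate number as a replicate block it was 9, and it was 2 without controls 4, 5 and 6. It was 0 in limma once the meningeal score entered as a covariate, while 1152 genes had an unadjusted p under 0.05 in that fit. Median centring moved the median difference over all genes in this contrast from 1.96e-05 to 0.00966. The signs of compressed genes after restraint can therefore depend on the scaling, and that of Notch1 turned under both other scalings. Same-numbered samples correlated at 0.0866 to 0.226 in this set and at -0.11 to 0.194 in the linalool set. For linalool, 4229 genes were called, 67.4% of them higher. Median centring called 13223, 95.3% of them higher, because it adds about 0.00765 to every difference, which is more than compressed genes differ by. Quantile normalization called 1575 (64.4% higher), all probe sets 7763, leaving out compressed genes 1642, and leaving out 1 array 3548 to 4187. Members called were 3, with 8 under median centring, 1 without compressed genes and 2 to 4 with 1 array left out. Signs turned under median centring for Sox2 (0.0059), Sox4 (0.0073), Ccnd1 (0.0074) and Notch1 (0.0074), under quantile normalization for Sox2 (0.0044), Sox4 (0.00088) and Olig1 (-0.0397, adjusted p = 0.00074), and for Nrarp with the mean of its probe sets (-5.61e-06). With 1 array left out, Sox2 ran from -0.0394 to 0.0535 and Hes5 from -0.0156 to 0.181. Apart from the median centring case, the cause of these changes was not tested.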

Other observations

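Neural progenitor markers, a list of 6 genes (Nes, Fabp7, Hmga2, Prom1, Egfr and Pax6), had scores of -1.23 to -0.31 residual SDs in restrained rats and 0.24 to 0.96 in control rats, without overlap. Their summed linear signals did overlap, at 4780 to 5171 in restrained rats and 5166 to 5583 in control rats. The list was not 1 of the cell type marker lists counted above, though Nes is also in that of tanycytes and ependyma. The progenitor list was chosen with earlier results of these data known, so its scores are a description only. Msi1 and Bmi1 were also listed but not measured. All 6 measured genes had negative differences on the deposited values, where the sign of a compressed gene can depend on the scaling. Of the 6, 2 had an unadjusted limma p under 0.05. None passed the limma threshold over all genes; the nearest was Fabp7, a fatty acid binding protein of radial glia, with -0.16 (SE 0.0399, adjusted p = 0.104), and 5 of the 6 were compressed. With linalool, Fabp7 rose by 0.18 (limma adjusted p = 0.0256). Nes, an intermediate filament of progenitors, fell by 3.69 residual SDs (0.00113), compressed, with its sign turned by both other scalings. Nes was also the gene of the tanycyte and ependymal list that fell with linalool.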
